A study of Gallus gallus with 6 samples.

Results

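Linker histone genes were represented on the chicken array by 3 of its 38535 probe sets, 1 each for HIST1H111L, HIST1H111R and H1FOO. They were taken as every probe set that the platform annotation assigns to these genes, and no other probe set carried the name of a linker histone. The study measured total RNA of DT40, a B cell line of the chicken, from exponentially growing cultures on 6 arrays, with 2 arrays for each of 3 groups. Wild type cells were compared with K11, in which endogenous H1 is knocked out according to the labels, and with K11-5, called completely H1 null there. All 3 groups were cultured at 39.5 °C with 100 nM of Z-VAD-FMK, a pan-caspase inhibitor. The sources used here do not give which linker histone alleles were deleted or added back in either line, whether each line is 1 clone, or where the probes lie relative to a deleted part. These probe sets therefore do not check the labels. The labels do not tell whether the arrays of a group stem from separate cultures. The p-values below therefore measure the spread between arrays, which may be technical. A fit that leaves 1 array in a group takes its spread from the other groups, and calls kept or lost there are read with that limit.

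Linker histones bind DNA where it enters and exits the nucleosome and help chromatin to fold. Most of them are made in S phase from genes that lie among core histone genes, and their mRNAs mostly end in a stem-loop rather than a poly(A) tail. A labelling reaction that starts at poly(A) therefore reads such mRNAs only in part. H1FOO is the linker histone of oocytes in mammals.

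The annotated chicken family is larger than what the array names. RefSeq genes of assembly GRCg7b list HIST1H101, HIST1H103, HIST1H110, HIST1H111L and HIST1H111R in the histone cluster of chromosome 1. H1F0, the H5-type linker histone, lies elsewhere on chromosome 1, and H1FOO and H1FX lie on chromosome 12. Of these 8 genes, 5 had no probe set under their name and are not analysed here. The family members are close relatives, and whether RNA of an unnamed member adds to the signals below was not tested. The HIST1H111L and HIST1H111R probe sets, GgaAffx.23667.1.S1_at and GgaAffx.23667.1.A1_at, carry the same design name and differ in the letter that the manufacturer uses for sense and antisense orientation. Which strand of which gene each one reads was not tested, so their signals are given separately. Differences between these probe sets are not read as differences between the genes.

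HIST1H111L, a replication-dependent linker histone, was bright on every array. Its normalized signal was 1623 and 2161 for wild type, 5791 and 1576 for K11 and 4776 and 4426 for K11-5. Both K11-5 arrays and K11 replicate 1 were high, while K11 replicate 2 lay just under the wild type arrays. All 6 values were above background, taken as a signal of 11.3, and the mean over arrays of 3392 ranked at the 99.6th percentile of probe sets. RNA read by this probe set was thus present in the libraries labelled knock out and complete null.

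**Figure D1:**
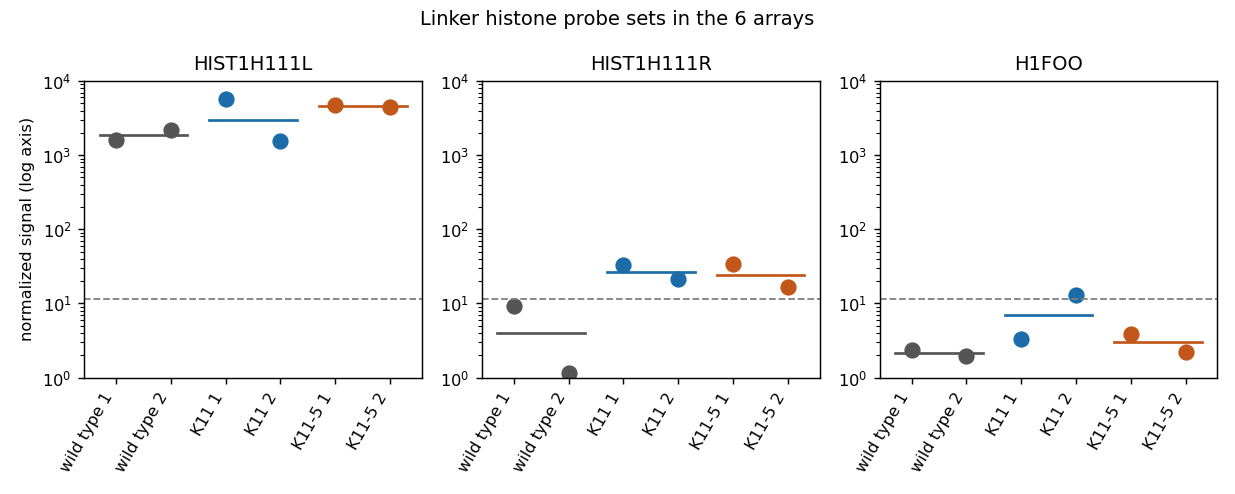
Normalized signal (log axis) of the linker histone probe sets in the 6 arrays; points are arrays, solid lines are group means on the log2(signal + 2) scale, and the dashed line is the background signal of 11.3. HIST1H111L is bright throughout with the K11 arrays at 5791 and 1576, HIST1H111R lies under background in wild type and above it in both lines, and H1FOO passes background in K11 replicate 2.

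In K11-5 against wild type the log2 fold change of HIST1H111L was 1.29 ± 0.44 (SE, n = 2 arrays a group), with a 95% interval from 0.31 to 2.28. The groups did not overlap, which was the case for 53.1% of tested probe sets in this comparison. The K11-5 level was 2.45-fold that of wild type, and the difference did not pass the threshold in limma (Benjamini-Hochberg adjusted p = 0.134). In that comparison 0 of the 2 linker histone probe sets tested passed, against 5.46% of all probe sets tested. Both had an unadjusted limma p under 0.05, as did 19.1% of all tested, and 1 of them, HIST1H111R, entered the test through its level in the lines, as described below. The estimate of the spread is shared by the 3 groups, and for HIST1H111L the difference between arrays was largest in K11. Without K11 replicate 1 the log2 fold change was 1.26, and without K11 replicate 2 it was 1.27. In these fits the 1 remaining K11 array adds nothing to the estimate of the spread, which comes from the wild type and K11-5 arrays. A fit on only the 4 wild type and K11-5 arrays, chosen after the data were seen, gave limma's adjusted p = 0.00162. That fit used the same normalized values of the 4 arrays, so its fold change was the same 1.29 and its estimate of the spread differed.

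K11 gave no single level of HIST1H111L. Its log2 fold change against wild type was 0.69 ± 0.44 (SE), with a 95% interval from -0.30 to 1.68 (limma adjusted p = 0.417), and the groups overlapped. K11 replicate 1 stood 3.09-fold above the wild type mean, by 1.63 on the log2 scale, whereas K11 replicate 2 differed from it by -0.25. Without K11 replicate 1 the fold change was -0.24, and without K11 replicate 2 it was 1.60. Each of these fits has 1 K11 array and so no spread within K11. The direction of HIST1H111L in K11 thus rested on which array was kept. Of the 2 linker histone probe sets tested in K11 against wild type, 0 passed, where 7.7% of all tested did. HIST1H111R had an unadjusted limma p under 0.05, as did 21.7% of all tested. This probe set entered the test through its level in the lines, as described below.

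The comparison of K11-5 with K11 turned with the same arrays. HIST1H111L had a log2 fold change of 0.61 ± 0.44 (SE), with a 95% interval from -0.38 to 1.59 (limma adjusted p = 0.531). It was 1.51 without K11 replicate 1 and -0.34 without K11 replicate 2, each with 1 K11 array and so no spread within K11. Of the 2 linker histone probe sets 0 passed and 0 had an unadjusted limma p under 0.05, where 2.84% and 17.7% of all tested did.

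**Figure D2:**
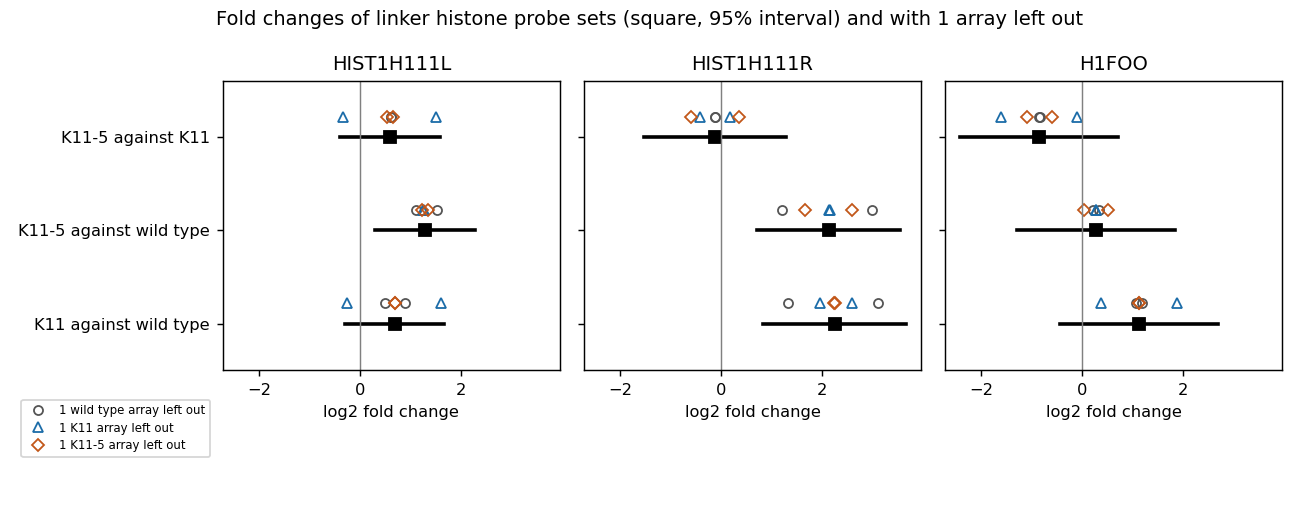
Log2 fold changes of the linker histone probe sets in the 3 comparisons; squares and bars are the fit on 6 arrays with its 95% interval (for H1FOO from the fit without a filter), and open symbols are fits with 1 array left out, by the group of that array. The HIST1H111L values for K11 against wild type move between -0.24 and 1.60 with the K11 array left out, while those for K11-5 against wild type stay between 1.11 and 1.52.

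The K11 arrays disagreed on HIST1H111L by more than on almost any other bright probe set. Their signals differed 3.67-fold, by 1.88 on the log2 scale. Of the 843 probe sets with a mean signal of at least 1000, 2 differed this much between the K11 arrays, which is 0.237% including HIST1H111L itself, and the median difference was 0.19. The other was HSP90AA1, a heat shock protein, which differed 5.21-fold in the opposite direction, with 288 in K11 replicate 1 and 1507 in replicate 2. SAT1, an enzyme of polyamine breakdown, came next, 3.51-fold higher in replicate 1, followed by SQLE, squalene epoxidase, and HSPD1, a mitochondrial chaperonin, which were 3.10-fold and 2.56-fold lower there. The wild type arrays differed by 0.41 on HIST1H111L, a difference that 5.34% of the bright probe sets reached, and the K11-5 arrays by 0.11, which 49.2% reached. The median difference over bright probe sets was 0.097 in wild type and 0.107 in K11-5. The K11 arrays, with a median of 0.19, thus differed more across bright probe sets in general. Whether the K11 arrays differ in the cells, the RNA or the hybridisation was not tested.

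**Figure D3:**
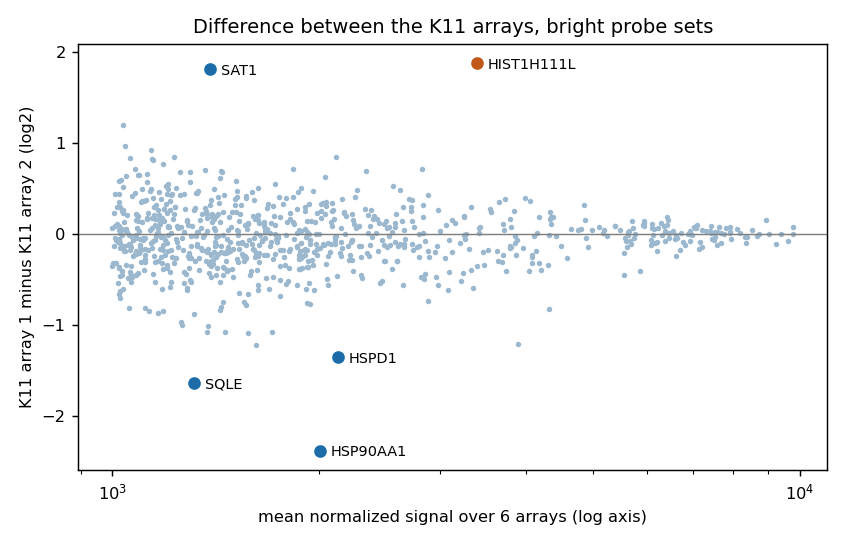
Difference between K11 array 1 and K11 array 2 on the log2 scale against the mean normalized signal over 6 arrays (log axis), for the 843 probe sets with a mean of at least 1000; each point is a probe set. HIST1H111L (orange) lies at 1.88 and SAT1 close to it, with HSP90AA1 at the other end.

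HIST1H111R, the neighbouring replication-dependent linker histone gene, was dim. Its normalized signal was 9.15 and 1.17 for wild type, 32.7 and 21.1 for K11 and 34.4 and 16.8 for K11-5. Both wild type arrays were under background and all 4 arrays of the lines were above it, with no overlap between wild type and either line. Groups did not overlap for 52% of tested probe sets in K11 against wild type. Its wild type mean of 2.57 on the log2(signal + 2) scale was below the filter of 2.97, so it was tested through its level in the lines and had to differ from wild type in that direction.

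With background taken as the wild type level, the mean of HIST1H111R was 2.13-fold higher in K11 and 1.96-fold higher in K11-5 (signal + 2). These are ratios of means and not lower bounds. The 95% intervals of the log2 fold changes ran from 0.84 to 3.67 in K11 and from 0.72 to 3.55 in K11-5. The fitted log2 fold changes were 2.25 ± 0.63 (SE, limma adjusted p = 0.0598) in K11 and 2.14 ± 0.63 (SE, limma adjusted p = 0.0866) in K11-5, and neither passed the threshold. Without the filter the adjusted p was 0.123 in K11 and 0.168 in K11-5 (limma). K11-5 minus K11 was -0.12 ± 0.63, with a 95% interval from -1.53 to 1.29 (limma adjusted p = 0.949). The size depended on the wild type arrays, which differed 3.52-fold under background. Without wild type replicate 1 the log2 fold changes were 3.12 in K11 and 3.003 in K11-5, with the filter still set by the lines. Without wild type replicate 2 they were 1.33 and 1.22. Each of these fits has 1 wild type array, itself under background, and so no spread within wild type. The difference between the lines was 0.17 without K11 replicate 1 and 0.36 without K11-5 replicate 2.

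H1FOO was dim, and its mean over arrays of 4.48 ranked at the 26.5th percentile of probe sets. Its normalized signal was 2.32 and 1.94 for wild type, 3.34 and 13.1 for K11 and 3.92 and 2.21 for K11-5. It passed background in K11 replicate 2 and in no other array. K11 did not overlap wild type, as was the case for 52% of tested probe sets there, while K11-5 overlapped both other groups. H1FOO did not pass the filter on low values, so it is not counted among those tested. Without the filter, the log2 fold changes were 1.12 ± 0.70 in K11 against wild type (limma adjusted p = 0.516), 0.28 ± 0.70 in K11-5 against wild type (limma adjusted p = 0.929) and -0.85 ± 0.70 in K11-5 against K11 (limma adjusted p = 0.684). The oocyte and germline markers, the cells in which H1FOO is known, were also dim, with a summed signal of 89.4 to 129 over 9 probe sets, and 1 of them was above background in all 6 arrays.

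The probe sets of the HIST1H111L and HIST1H111R pair were set beside the other pairs of the array that share a design name and differ in orientation. Among 2426 such pairs, both probe sets were above background in all 6 arrays in 39, the S1 one alone in 246, the A1 one alone in 79 and neither in 2062. HIST1H111L and HIST1H111R belong to the 246, since the A1 probe set was above background in 4 arrays. Of 789 pairs with 1 gene symbol at both probe sets, this was 1 of 13 with different genes at each. Across the 6 arrays their log2 signals had Pearson's r = 0.552, and 3687 of the 23063 tested probe sets had an r at least as high with HIST1H111L. In K11 replicate 2 HIST1H111L was just under the wild type arrays, while HIST1H111R was above both of them.

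The named genes whose signal followed HIST1H111L most closely over the 6 arrays were ABHD2, GOLGA7, PHIP, GRHL3 and ARCN1, with Pearson's r from 0.978 to 0.993. ARCN1 was read by an A1 probe set, and which strand that probe set reads was not tested. ABHD2, a lipid hydrolase, read 16.2 and 18.6 for wild type, 30.1 and 17.2 for K11 and 27.0 and 25.3 for K11-5. It too was high in K11 replicate 1 and low in replicate 2. In all, 38 of 23063 tested probe sets had an r of at least 0.95 with HIST1H111L. For HIST1H111R the closest were CADPS, ZDHHC9, HHIP, TAF9 and ALG3, with r from 0.99 to 0.998, and 95 probe sets had at least 0.95. TAF9, a subunit of the general transcription factor TFIID, had 259 and 205 for wild type, 310 and 283 for K11 and 309 and 287 for K11-5. These r were the highest among tested probe sets with 1 gene symbol, leaving out LOC and clone names and the linker histones. They describe 6 arrays that share their groups, and some rest in part on values under background. In the wild type arrays CADPS had 8.41 and 1.82 and HHIP had 8.65 and 3.09, under background as HIST1H111R was. GRHL3 was under background in both wild type arrays and in K11 replicate 2.

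Core histones form the nucleosome that linker histones bind. Their brighter probe sets departed from the pattern of HIST1H111L in K11 replicate 1, as described below. Most of their probe sets match groups of near-identical genes and are described by family. An H4 probe set, Gga.5576.1.S1_a_at, had 412 and 334 for wild type, 352 and 393 for K11 and 1452 and 1576 for K11-5. Its K11 arrays lay with wild type and both K11-5 arrays lay far above. It rose by 2.02 ± 0.16 (SE) on the log2 scale in K11-5 against wild type (limma adjusted p = 0.000267) and by 2.02 ± 0.16 against K11 (limma adjusted p = 0.00064).

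Over the 6 core histone probe sets with a mean signal of at least 100, K11 replicate 1 differed from the wild type mean by -1.05 to 0.07 on the log2 scale, where HIST1H111L differed by 1.63. K11 replicate 2 differed by -1.10 to 0.08, where HIST1H111L differed by -0.25. In K11-5 replicates 1 and 2 the core histone probe sets differed by 0.95 to 1.96 and by 0.79 to 2.08, and HIST1H111L by 1.35 and 1.24. In K11-5 and in K11 replicate 2 the HIST1H111L difference thus fell within the range of these 6 core histone probe sets. In K11 replicate 1 it lay above all 6. The dimmer H4 probe set Gga.5576.2.S1_at is outside the 6 and fell in K11-5, as described below. The difference between linker and core histones was not tested. An H2A probe set, GgaAffx.23666.1.S1_at, had 242 and 196 for wild type, 228 and 135 for K11 and 483 and 388 for K11-5. It rose by 1.29 ± 0.26 in K11-5 against K11 (limma adjusted p = 0.0326) and had 0.99 ± 0.26 against wild type (limma adjusted p = 0.0583). The H3 probe sets, among the 6, are also assigned to a variant gene and are not in the count below. Gga.6103.1.S1_at fell by 1.07 ± 0.21 in K11 against wild type (limma adjusted p = 0.0164), and Gga.6103.1.S1_x_at had -0.65 ± 0.24 (limma adjusted p = 0.141). In K11-5 against wild type they rose by 0.90 ± 0.21 and 0.99 ± 0.24 (limma adjusted p = 0.0388 and 0.0416).

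Of 8 probe sets assigned to replication-dependent core histones alone, 7 were tested. Against wild type 3 rose in K11-5, where 2.6% of all tested were higher, and 1 fell, where 2.86% were lower. The median log2 fold change was 0.99, against -0.0038 over all tested probe sets. The one that fell, Gga.5576.2.S1_at, had a K11-5 level under the filter and was tested through its wild type level. Its log2 fold change was -2.90 ± 0.54 (SE, limma adjusted p = 0.0155). It is assigned to the same genes as Gga.5576.1.S1_a_at, the H4 probe set that rose by 2.02 in K11-5 against wild type. Why these H4 probe sets moved in opposite directions was not tested. Likewise in K11 0 rose, where 3.75% of all tested were higher, and 1 fell, where 3.95% were lower, with a median of -0.35. It was again Gga.5576.2.S1_at, with 60.8 and 43.3 for wild type, 3.34 and 9.71 for K11 and 6.58 and 3.98 for K11-5. Both lines were under background there, and the wild type mean was 3.999-fold the background level (signal + 2). Between the lines 4 were higher in K11-5, where 1.08% of all tested were higher, and 0 lower, where 1.76% were lower, with a median of 1.88. Some of these probe sets share their assigned genes and are not separate results. Leaving out K11 replicate 1 or either wild type array ended the call of Gga.5576.2.S1_at in K11, and leaving out K11-5 replicate 2 or either wild type array ended it in K11-5. The H2A call above held without K11 replicate 1 and in no other fit without 1 array. The H3 call of Gga.6103.1.S1_at in K11 was lost without either wild type array. Both H3 calls in K11-5 against wild type were lost without either wild type or either K11-5 array. They were also lost on the deposited scale and with arrays centred on their medians, and that of Gga.6103.1.S1_x_at without the filter. Actin signal at the 3' end over that at the 5' end, which reads RNA quality and labelling, was lowest in K11-5 and highest in K11, with 8.1 and 7.15 for wild type, 9.23 and 9.31 for K11 and 6.29 and 5.28 for K11-5. The same ratio for GAPDH ran from 0.798 to 0.917 with no such order, and for the dap control it was 6.87 and 6.93 for wild type, 7.67 and 8.42 for K11 and 8.45 and 8.66 for K11-5. The part of these ratios in the histone results was not tested.

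**Figure D4:**
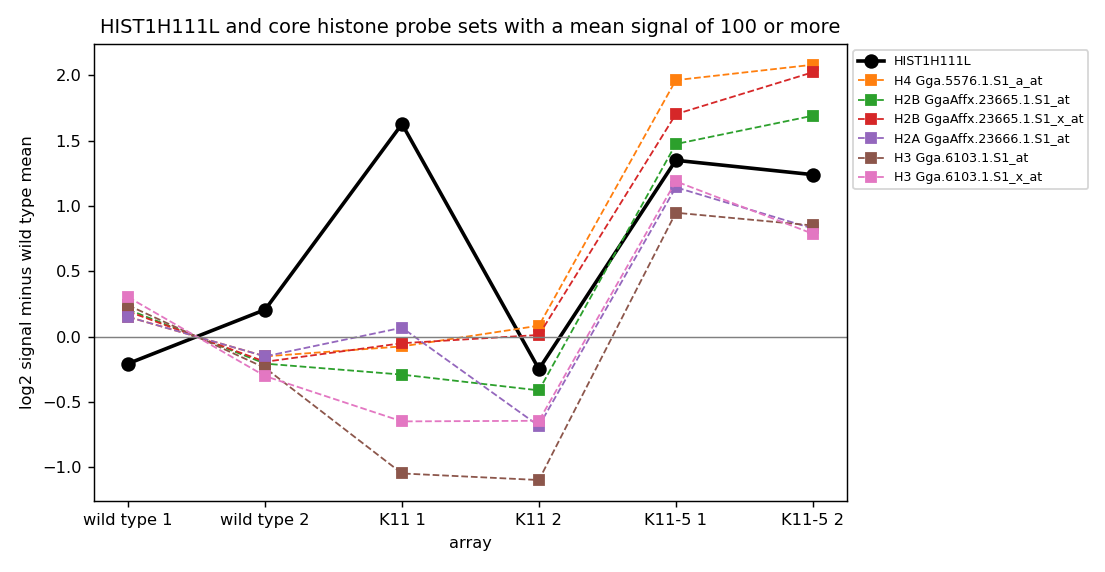
Log2 signal minus the wild type mean in each array for HIST1H111L (black) and the 6 core histone probe sets with a mean signal of at least 100 (coloured, dashed; the H3 pair is also assigned to a variant gene and is outside the count of 8). In K11 replicate 1 HIST1H111L lies at 1.63 with every core histone probe set at or below 0.07, and in K11-5 all lie between 0.79 and 2.08.

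Of 34 listed genes for factors that make and process histone mRNA, 26 were tested. Between K11-5 and K11 4 fell in K11-5 and 0 rose, with a median of -0.16 against 0.024 over all tested, where 1.76% of all tested were lower and 1.08% higher. SLBP, which binds the stem-loop of histone mRNAs, had 284 and 338 for wild type, 498 and 514 for K11 and 299 and 223 for K11-5. Both K11 arrays were above all others. It fell by 0.97 ± 0.20 (SE) in K11-5 against K11 (limma adjusted p = 0.0338) and had 0.70 ± 0.20 in K11 against wild type (limma adjusted p = 0.0566). CCNE2, a cyclin E of the G1 to S transition, fell by 1.65 ± 0.21 against K11 (limma adjusted p = 0.0052) and by 1.26 ± 0.21 against wild type (limma adjusted p = 0.00874). E2F1, a transcription factor of S phase genes, fell by 0.86 ± 0.18, and SF3B1, a splicing factor, fell by 0.61 ± 0.14, in K11-5 against K11 (limma adjusted p = 0.039 and 0.0472).

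Against wild type 1 of the 26 rose and 1 fell in K11-5, and 1 rose and 0 fell in K11. This is 7.69% and 3.85% of the 26, where 5.46% and 7.7% of all tested passed. EXOSC10, a nuclease of the nuclear exosome, was the one that rose in both, by 1.04 ± 0.19 in K11-5 (limma adjusted p = 0.0144) and by 1.16 ± 0.19 in K11 (limma adjusted p = 0.00768). CCNE2 was the one that fell. Medians were -0.17 in K11-5 and 0.082 in K11. The number past the threshold in K11-5 against wild type was 4 and 3 when K11 replicate 1 or 2 was left out, 1 when K11-5 replicate 1 was, and 0 when K11-5 replicate 2 or either wild type array was. For K11 against wild type it was 0 without wild type replicate 1, and 2 and 3 without K11 replicates 1 and 2. For K11-5 against K11 it was 1 without either wild type array, 2 without K11-5 replicate 1 and 0 without K11-5 replicate 2. The EXOSC10 call in K11 was lost without wild type replicate 1, and its call in K11-5 without either wild type or either K11-5 array. The CCNE2 calls were both lost without K11-5 replicate 2, and that against wild type also without either wild type array. The SLBP, E2F1 and SF3B1 calls each held in 1 of the 6 fits without 1 array, those without K11-5 replicate 1, K11 replicate 1 and K11 replicate 2. These 3 calls were also lost on the deposited scale and with arrays centred on their medians, that of SF3B1 without the filter, and that of EXOSC10 in K11 on the deposited scale. The sign of every call named here and in the lists below was the same in all 13 alternatives.

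Among 34 genes for chaperones, import receptors and binding partners of H1, 26 were tested. Against wild type 2 rose and 2 fell in K11-5, and 3 rose and 1 fell in K11. Each is 15.4% of the 26, where 5.46% and 7.7% of all tested passed. Medians were 0.074 and 0.094. KPNB1, importin beta, which carries H1 into the nucleus together with importin 7, had 675 and 694 for wild type, 1020 and 1157 for K11 and 2055 and 1629 for K11-5. Its level was lowest in wild type and highest in K11-5 without overlap. It rose by 1.41 ± 0.15 (SE) in K11-5 (limma adjusted p = 0.00117) and by 0.66 ± 0.15 in K11 (limma adjusted p = 0.028), and K11-5 minus K11 was 0.75 ± 0.15 (limma adjusted p = 0.0342). IPO7, importin 7, had -0.43 ± 0.13 in K11 (limma adjusted p = 0.083).

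NCL, nucleolin, rose by 0.61 ± 0.12 in K11-5 (limma adjusted p = 0.0199) and by 1.06 ± 0.12 in K11 (limma adjusted p = 0.0016). CBX3, a heterochromatin protein 1, fell by 0.72 ± 0.17 in K11-5 (limma adjusted p = 0.0347) and by 0.71 ± 0.17 in K11 (limma adjusted p = 0.0312). SUV39H2, a histone H3 methyltransferase, fell by 0.76 ± 0.18 in K11-5 (limma adjusted p = 0.0405). IPO5, an importin, rose by 0.60 ± 0.14 in K11 (limma adjusted p = 0.0274). Between the lines 2 were higher in K11-5 and 0 lower, and NPM3, a nucleoplasmin, was the one beside KPNB1, where 2.84% of all tested passed and these are 7.69% of the 26. NPM3 differed by 0.60 ± 0.13 (limma adjusted p = 0.0408). It was read by an A1 probe set, and which strand that probe set reads was not tested. In both comparisons with wild type 1 gene passed when either wild type array was left out. For K11-5 the number there was 2 and 1 without K11-5 replicates 1 and 2, and 6 without either K11 array. Between the lines it was 4 without K11 replicate 2 and 0 without any other single array. The calls that held in every fit without 1 array were KPNB1 in K11-5 and NCL in K11. The KPNB1 and IPO5 calls in K11 were lost without either wild type array or K11 replicate 2, and the CBX3 call in K11 held without K11 replicate 2 and was lost without any other array. On the deposited scale and after centring arrays on their medians, the KPNB1 and IPO5 calls in K11 were lost, and on the deposited scale that of NCL in K11-5. Without the filter the calls of KPNB1 in K11 and between the lines, IPO5, NPM3, CBX3 in both lines and NCL in K11-5 were lost. The calls in K11-5 for CBX3 and SUV39H2 were lost without either wild type or either K11-5 array, and that for NCL without either wild type array or K11-5 replicate 2.

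Of 42 genes for enzymes that modify H1, 30 were tested. Against wild type 0 passed in K11-5 in limma, and 4 had an unadjusted p under 0.05, where 5.46% of all tested passed and 19.1% had such a p. CCNB1, cyclin B1, the partner of the mitotic kinase CDK1, fell by 0.53 ± 0.14 in K11 (limma adjusted p = 0.0463), a call that no fit without 1 array kept and that was lost without the filter. PPP1CC, a protein phosphatase 1 catalytic subunit, fell by 0.63 ± 0.13 in K11-5 against K11 (limma adjusted p = 0.0348), a call lost without either wild type or either K11-5 array, without the filter, on the deposited scale and with arrays centred on their medians. Of the 30, 1 passed in each of these comparisons, which is 3.33%, where 7.7% and 2.84% of all tested did.

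The genes that flank the linker histones were examined next, and none of these loci is known from the sources used here to be targeted. In RefSeq order, the 20 genes before and after the chromosome 1 cluster and those between its linker histones made 58 genes, of which 12 were tested. HEBP1, a heme-binding protein and the fourth gene after HIST1H111R, had 17.2 and 1.51 for wild type, 102 and 98.9 for K11 and 63.3 and 100.5 for K11-5. All 4 arrays of the lines were above both wild type arrays, of which 1 was above background. On the log2(signal + 2) scale, with a wild type level near background, it rose by 3.64 ± 0.63 (SE) in K11 (limma adjusted p = 0.00992) and by 3.32 ± 0.63 in K11-5 (limma adjusted p = 0.0166). The size rested on the wild type arrays, as for HIST1H111R. Without wild type replicate 1 it was 4.81 in K11 and 4.49 in K11-5, and without wild type replicate 2 it was 2.39 and 2.07. In K11-5 the HEBP1 call was lost without wild type replicate 2, and also without K11-5 replicate 1 or 2, at 3.65 and 2.99.

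DDX47, an RNA helicase and the second gene after HIST1H111R, had 346 and 327 for wild type, 158 and 177 for K11 and 201 and 208 for K11-5 at its brighter probe set. Both lines were below wild type without overlap. It fell by 0.996 ± 0.18 in K11 (limma adjusted p = 0.0122) and had -0.71 ± 0.18 in K11-5 (limma adjusted p = 0.0514). A dimmer DDX47 probe set gave the reverse order of calls, with -0.63 ± 0.19 in K11 (limma adjusted p = 0.0763) and -0.92 ± 0.19 in K11-5 (limma adjusted p = 0.0233). The K11 call was lost without wild type replicate 1 (-0.96) or replicate 2 (-1.03). With the brightest probe set of each gene, HEBP1 and DDX47 were the 2 of the 12 that passed in K11, and HEBP1 was the 1 that passed in K11-5. This is 16.7% and 8.33%, where 7.7% and 5.46% of all tested passed.

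**Figure D5:**
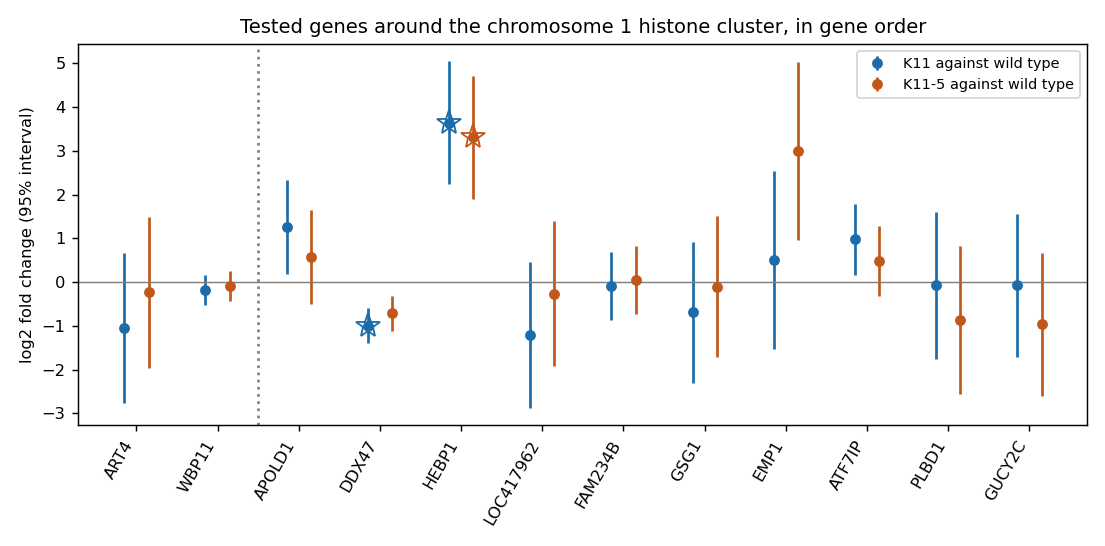
Log2 fold change with its 95% interval for the 12 tested genes around the chromosome 1 histone cluster, in RefSeq gene order, in K11 (blue) and K11-5 (orange) against wild type; the dotted line marks the place of HIST1H111R and stars mark genes past the threshold. HEBP1 is high in both lines at 3.64 and 3.32, and DDX47 is low in K11 at -0.996.

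Around H1F0, whose own gene had no probe set, 21 of 40 neighbours were tested. Compared with wild type 3 rose in K11, and they were DDX17, an RNA helicase, by 0.82 ± 0.16, MAFF, a small Maf transcription factor, by 1.10 ± 0.26, and RAC2, a small GTPase of blood cells, by 1.17 ± 0.25 (limma adjusted p = 0.0165, 0.0323 and 0.0219). For K11-5 against wild type 0 of the 21 passed in limma, where 5.46% of all tested did, and 6 had an unadjusted p under 0.05, where 19.1% of all tested did. Compared with K11, in K11-5 DDX17 fell by 1.13 ± 0.16 and RAC2 fell by 1.14 ± 0.25, while TMEM184B, a membrane protein, rose by 1.05 ± 0.23 (limma adjusted p = 0.0104, 0.0448 and 0.0414). Around H1FOO 19 of 35 neighbours were tested. IFT122, a component of cilia transport that lies 2 genes before H1FOO, had 57.6 and 51.3 for wild type, 16.4 and 15.8 for K11 and 44.1 and 33.1 for K11-5. It fell by 1.64 ± 0.31 in K11 (limma adjusted p = 0.0129). In all 52 tested neighbours, 6 passed in K11 against wild type, 1 in K11-5 against wild type and 3 in K11-5 against K11, which is 11.5%, 1.92% and 5.77%, where 7.7%, 5.46% and 2.84% of all tested passed. The DDX17 and MAFF calls in K11 were lost without either wild type array or K11 replicate 1, that of RAC2 without wild type replicate 1 or either K11 array, and that of IFT122 without either wild type array. On the deposited scale and after centring arrays on their medians, the DDX17, MAFF and RAC2 calls in K11 and the RAC2 call between the lines were lost. The DDX17 call between the lines was lost on the deposited scale, and that of RAC2 without the filter. Between the lines, the DDX17 call was lost without K11-5 replicate 2, that of RAC2 without any K11 or K11-5 array, and that of TMEM184B held in the fit without K11 replicate 1 alone. The number of neighbours past the threshold in K11 was 2 without either wild type array, 3 without K11 replicate 1 and 9 without K11 replicate 2. For K11-5 against wild type it was 2 without wild type replicate 1, 0 without wild type replicate 2 or K11-5 replicate 2, and 3 without either K11 array. Between the lines it was 0 without K11-5 replicate 2, 1 without K11 replicate 2 or K11-5 replicate 1, and 2 without any other single array.

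B cell markers were present, with 6 of 8 probe sets above background in all 6 arrays, and their summed signal was 3647 and 4803 for wild type, 3476 and 4844 for K11 and 1399 and 516 for K11-5. The summed signal of 8 T cell markers, which rested on CD3D, was 1194 and 1211 for wild type, 1237 and 955 for K11 and 270 and 444 for K11-5. Of 6 erythroid markers, of the cells in which H1F0 of the H5 type is known, none was above background in all arrays, and they summed to 44.9 to 75.0. CD3D, a T cell receptor chain, was 1137 and 1158 for wild type and 211 and 392 for K11-5, while CD5 was 20.3 and 28.4 and then 31.7 and 24.3. Among the 8 B cell markers, CD79B was 1038 and 1507 for wild type and 162 and 21.8 for K11-5. POU2AF1 was 1252 and 1522.5 for wild type and 420 and 2.02 for K11-5. EBF1, BTK, SYK and IKZF3 were also lower in both K11-5 arrays than in both wild type arrays, and IKZF1 overlapped. PAX5, a B cell transcription factor, went the other way, with 7.71 and 3.75 for wild type, under background, and 11.4 and 28.8 for K11-5. Groups did not overlap for 53.1% of tested probe sets in K11-5 against wild type, so separation alone does not set these markers apart. The markers were not tested, and the part of the lower B cell sum and CD3D signal of K11-5 in its HIST1H111L result was not tested. A change in the share of cycling cells and a change in RNA per cell cannot be told apart in these bulk samples.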

How the data were processed

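A one-cycle kit was used to label total RNA, per the labels' protocols, which was then hybridised to 6 arrays. The authors deposited linear probe set intensities made with GCOS, per the submitters' processing notes. The sources used here give no version, algorithm or scaling. Trimmed means (2% at each end) ran from 48 to 77.7, a ratio of 1.62, so the deposited values were transformed as log2(value + 2) and quantile-normalized over 38439 probe sets without the 96 AFFX controls. On this scale fold changes of dim probe sets are understated. Normalized signals are back-transformed values. The 23063 probe sets whose mean reached the 40th percentile (signal 5.82) were tested with limma 3.58.1 in R 4.3.3, 1 mean per group, an intensity trend, 3 residual and 6.96 prior degrees of freedom, and Benjamini-Hochberg adjustment per comparison at 0.05. The fit was tested on simulated data. Arrays carry no depth, and their number limits the precision. Background was the 95th percentile of 23 bacterial and tag control probe sets, a signal of 11.3.

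Names came from the platform annotation. Of the probe sets, 27168 had 1 symbol, 177 several and 11094 none, and 26853 of the first matched RefSeq genes of GRCg7b. Probe sets with several symbols are given by histone family. Lists used the brightest tested probe set of a gene. Genes were named if they were linker histones, 1 of the 5 of highest r with a tested linker histone, among the 6 of smallest p in a list and comparison, or neighbours past the threshold; HSP90AA1, SAT1, SQLE, HSPD1 and the single core histone probe sets were named after their values were seen. Members, lists and tests were chosen with earlier results of these data known. Alternatives were the deposited and median-centred scales, added values of 16 and 1, no filter, no trend, the replicate block and 1 array left out. Same-numbered arrays did not deviate together (r = 0.0598, -0.0388 and -0.032), so numbers were not used as pairs.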

Additional observations from a re-analysis of the deposited data

Results flagged for a closer look

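The array carries 57 reporter probe sets, built on sequences that are not chicken genes and outside the linker histone measurement. On the normalized scale 8 of them were under background in wild type and over it in the 2 arrays of at least 1 line, which drew attention to them. The deposited signals of the probe set based on U57609 were 2231 and 1545 in K11 and 2758 and 2357 in K11-5. For AF403737 they were 971 and 514 in K11 and 1081 and 792 in K11-5, for L36849 695 and 767 and then 1668 and 1424, and for NC_002086 510.1 and 252 and then 387 and 199. For K01193 they were 143 and 69.9 in K11 and 177 and 161 in K11-5, and for AJ002682 126 and 42.7 and then 400.1 and 554. The probe set based on NM_131175 had 11.2 and 15.4 in K11-5. The one based on AF062997 had 76.3 and 126.6 in K11, where HIST1H111L differed between the arrays, and was under background in K11-5 and wild type. On the normalized scale the AF062997 probe set had 79.6 and 165 in K11 replicates 1 and 2, where HIST1H111L had 5791 and 1576. Whether these signals are related was not tested. The sources used here do not name the constructs behind these signals.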

How the results depend on the processing

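HIST1H111L in K11-5 against wild type kept its direction under every alternative run. It passed the threshold only where the spread came from the wild type and K11-5 arrays alone. Those fits gave 1.26 and 1.27 without K11 replicates 1 and 2. On only the 4 arrays compared, an alternative chosen after the data were seen, it was 1.29. They are not separate checks, since each drops the difference between the K11 arrays. The range over fits without 1 array was 1.11 to 1.52. In K11 against wild type that range was -0.24 to 1.60, and in K11-5 against K11 it was -0.34 to 1.51, with both signs set by the K11 arrays. HIST1H111R in K11-5 against wild type passed with the replicate block (2.14, limma adjusted p = 0.0358) and ranged from 1.22 to 3.003 without 1 array. In K11 against wild type it passed on the deposited scale (2.11, limma adjusted p = 0.0479), with arrays centred on their medians (2.18, limma adjusted p = 0.044) and with the replicate block (2.25, limma adjusted p = 0.0243), and ranged from 1.33 to 3.12. HIST1H111R entered the reported fit through the lines where it is high, so these passes are not given as support, and without the filter limma's adjusted p was 0.168 in K11-5 and 0.123 in K11. In K11-5 against K11 it ranged from -0.60 to 0.36. The block changed no other linker histone call and ended those of SUV39H2 in K11-5, CCNB1 in K11 and SF3B1 between the lines, and H1FOO passed under no alternative, with ranges of 0.031 to 0.52 in K11-5 and 0.38 to 1.88 in K11 against wild type and -1.61 to -0.10 in K11-5 against K11.

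The number of probe sets past the threshold moved more. In K11-5 against wild type it was 1260, with 27 without the intensity trend, 2000 on only the 4 arrays, and 155 to 1960 without 1 array. In K11 against wild type it was 1776, with 2931 on the deposited scale, 3435 with centred medians, 21 without the trend, and 265 to 2264 without 1 array. In K11-5 against K11 it was 655, with 1031 on the deposited scale, 1246 with centred medians, 429 without a filter, 320 on only the 4 arrays, and 81 to 1082 without 1 array. Without the trend limma called 0 there, with 3323 at an unadjusted p under 0.05. Without the trend none of the core histones, list genes and neighbours named above passed. The cause of these movements was not tested. Signals near background limit what HIST1H111R and H1FOO can show.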
